A study of Rattus norvegicus with 24 samples.

Results

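The proliferative to hypertrophic transition zone of the growth plate was compared with epiphyseal cartilage in the proximal tibia of rats. The members of the comparison are the 9 arrays so titled of the 24 arrays of the series: 5 arrays of the transition zone, from animals 1 to 5, and 4 arrays of epiphyseal cartilage, from animals 1, 2, 4 and 5. Arrays of 1 animal were paired by the animal number in the labels. All non-control probe sets of the array were considered, 31042 of 31099, and 19213 of them (61.9%) passed a filter on low signals. All 9 arrays came from rats 1 week old that were untreated, not castrated and kept on standard chow. Their strain and sex are not given in the labels of these arrays. Both tissues were dissected by hand from stained frozen sections of 60 µm, and 50 to 100 ng of total RNA was amplified and labelled for Affymetrix arrays. Resting, proliferative and hypertrophic zones (n = 5 each, with replicate numbers 1 to 5) make up the other arrays.

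In a growing long bone, epiphyseal cartilage caps the growth plate and holds rounded chondrocytes, some of which are later replaced by the bone of the secondary ossification centre. In the growth plate, chondrocytes divide in columns, leave the cell cycle, pass through a prehypertrophic stage and enlarge as hypertrophic cells, which secrete type X collagen and mineralize their matrix. The transition zone holds cells at that passage, where Indian hedgehog is made, and hedgehog signals act with parathyroid hormone-related protein in a feedback loop that sets how long chondrocytes keep dividing.

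Markers were read first. Both tissues carried the cartilage genes, with overlapping signals. Col2a1, the type II collagen of cartilage, had MAS5 signals of 106720.0, 56859, 35309, 52381 and 48069 in the transition zone, against 53252, 56488, 52954 and 96938 in epiphyseal cartilage. For Acan, the aggrecan core protein, they were 49023, 32120.0, 24209, 33181 and 31380.0 in the transition zone and 28044, 30677, 34418 and 48944 in epiphyseal cartilage. The groups overlapped for both genes, and the log2 fold changes were -0.04 ± 0.23 for Col2a1 and 0.02 ± 0.19 for Acan, with limma adjusted p of 0.926 and 0.959. Sox9 did not pass the filter and is not analysed here. Col10a1, the type X collagen of hypertrophic cartilage, stood far above the array median in both tissues and was higher in the transition zone, at 55989, 39484, 23885, 30696 and 33560.0, against 13967, 6418, 10600.0 and 3034 in epiphyseal cartilage. Every transition array lay above every epiphyseal array, and the log2 fold change was 2.39 ± 0.50 (adjusted p = 0.000734). The signal of Mef2c, a transcription factor gene of hypertrophy, did not pass the test (log2 fold change 0.20 ± 0.17, adjusted p = 0.403).

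The epiphyseal arrays of animals 1 and 2 stood apart in markers of other cell types. The mean log2(signal + 16) of 13 osteoclast and macrophage markers, of 17 listed, was 7.11 to 7.61 in the transition arrays. In epiphyseal cartilage it was 11.04 and 10.05 in animals 1 and 2, and 8.20 and 8.11 in animals 4 and 5. For 7 endothelial markers, of 12 listed, it was 6.68 to 7.12 in the transition arrays, and 9.91, 9.51, 7.03 and 6.93 in the epiphyseal arrays of animals 1, 2, 4 and 5. Thus 2 of the 4 epiphyseal arrays carried both sets of markers far above the rest. Of the 13 osteoclast and macrophage markers, 10 fell in the transition zone with all arrays, where 8.77% of all genes tested were called lower. Without those 2 epiphyseal arrays 0 of 13 were called, where 6.77% of all genes were. Among the endothelial markers 3 of 7 fell with all arrays and 0 of 7 without the 2 epiphyseal arrays. Acp5, the tartrate-resistant acid phosphatase of osteoclasts, had signals of 403, 146, 260.1, 214 and 74.1 in the transition zone, against 22486, 6035, 833 and 349.6 in epiphyseal cartilage. Its log2 fold change was -3.58 ± 0.87 with all arrays and -1.54 (adjusted p = 0.27) when the pair was left out. Kdr, a receptor of vascular endothelial growth factor, had 65.3, 78.8, 58.8, 45.7 and 8 in the transition zone, against 1735, 1177, 106 and 127 in epiphyseal cartilage, and a log2 fold change of -2.88 ± 0.69, or -1.50 (adjusted p = 0.215) without the pair. Whether the marker signal has a part in the other differences was not tested.

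Skeletal muscle markers (14 tested of 16) averaged 9.65, 8.22, 8.40, 8.45 and 8.09 on the log2 scale in the transition arrays of animals 1 to 5, and 11.75, 7.66, 7.97 and 9.47 in the epiphyseal arrays of animals 1, 2, 4 and 5. Among them 1 was called: Tnni2, a troponin gene, fell by 1.55 ± 0.18 as a log2 value (adjusted p = 3.72e-07). Osteoblast markers overlapped, at 9.57 to 10.55 in the transition arrays, and at 12.19, 10.64, 10.14 and 10.52 in the epiphyseal arrays. Ibsp, bone sialoprotein, was at 6228, 3299.8, 3030.5, 3461 and 3426 in the transition zone, against 17185, 1698, 1703 and 3637 in epiphyseal cartilage, where animal 1 was the highest, and did not pass the test (adjusted p = 0.969). None of 5 osteoblast and none of 6 erythroid markers was called, while 2 of 5 leukocyte markers fell (Lcn2, and Ptprc, which was at -1.07 with an adjusted p of 0.252 without the 2 epiphyseal arrays), and of the 4 adipocyte and neural markers tested S100b rose. S100b, a calcium-binding protein also made by chondrocytes, had 15691, 10745, 12551, 13199 and 14048 in the transition zone, against 4853, 3309.5, 4230.2 and 3357 in epiphyseal cartilage (log2 fold change 1.70 ± 0.16, adjusted p = 2.31e-08). The perichondrium and fibroblast list, whose collagens are made by several connective tissue cells, had 6 of 17 members lower in the transition zone and 0 higher. Its mean was 10.49 to 10.84 in the transition arrays and 12.29, 11.94, 11.52 and 11.39 in the epiphyseal arrays.

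**Figure D1:**
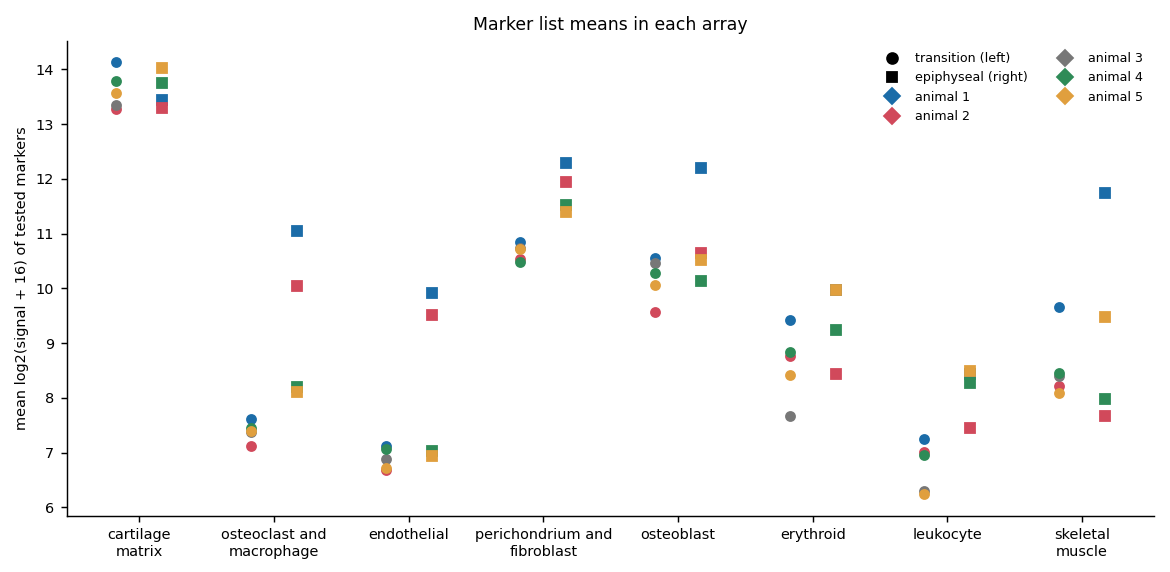
Mean log2(signal + 16) of the tested markers of 8 lists in each array, with transition arrays as circles on the left and epiphyseal arrays as squares on the right of each list, coloured by animal. The epiphyseal arrays of animals 1 and 2 reach 11.04 and 10.05 for osteoclast and macrophage markers, against 8.20 and 8.11 in animals 4 and 5, while cartilage matrix means overlap between the tissues.

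Across the array, more probe sets were lower than higher in the transition zone. Calls required a 2-fold difference or more together with a limma adjusted p under 0.05, from a fit of all 24 arrays with the animal as a block. Of 19213 probe sets tested, 2649 (13.8%) were called: 831 (4.33%) were higher and 1818 (9.46%) were lower in the transition zone. At any fold, 5684 (29.6%) had an adjusted p below 0.05. Without a model, all 5 transition arrays lay above all 4 epiphyseal arrays in 1714 probe sets (8.92%), and below them in 2301 (12.0%). With 1 probe set for each of 10558 genes, 491 (4.65%) were higher and 926 (8.77%) were lower, and the counts of list members below are to be read against these shares. The shares of genes called higher and lower were 10.4% and 5.21% with arrays scaled to one median, 5.43% and 6.5% after quantile normalization, 4.81% and 8.86% with no replicate block, and 6.21% and 6.77% with epiphyseal arrays 1 and 2 left out. At least 4-fold differences were found in 77 genes that were higher and in 255 that were lower, and at least 8-fold differences in 19 and 73. No gene had probe sets called in opposite directions. Probe sets of a gene could still differ in size of change. As the mean of its probe sets, Fgfr2 was at -1.76 in place of -3.02, and Runx3 at 1.52 in place of 2.47. Tmem229a was at 1.76 in place of 3.25, Mx2 at 2.14 in place of 3.52 and Sfrp1 at -1.88 in place of -3.09. Of the 113 named genes called, 109 were still called on that mean.

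The balance of the 2 directions depended on how arrays were scaled. MAS5 had set each array to one trimmed mean, and the median signal of an array was then 135.3 to 173.2 in the transition zone and 170.9 to 244.6 in epiphyseal cartilage. Of the calls, 31.4% were higher in the transition zone as deposited, 44.8% after quantile normalization and 62.5% with arrays scaled to one median. The median log2 fold change of all probe sets was -0.07 as deposited, 0.06 after quantile normalization and 0.22 with one median. No probe set called as deposited was called in the opposite direction in either case. In tissue pieces, fewer cells of a type and less RNA per cell cannot be told apart, and the fold changes below are differences of log2(signal + 16), a measure that shrinks the change of dim genes, with standard errors of the fit.

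**Figure D2:**
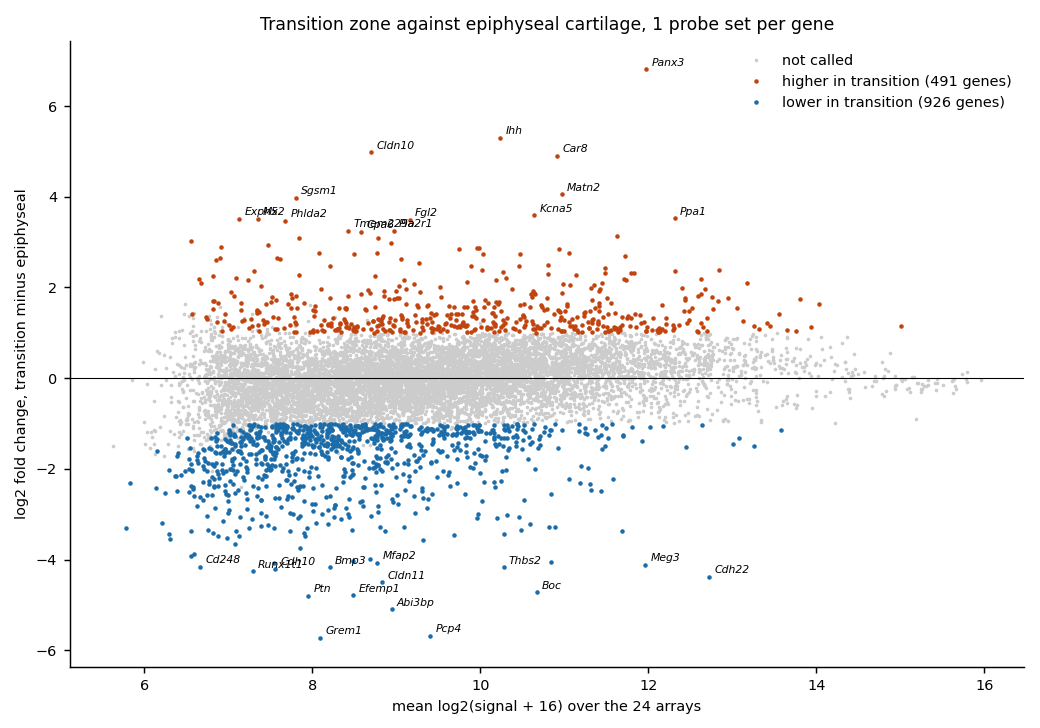
Log2 fold change (transition minus epiphyseal) of 10558 genes against their mean log2(signal + 16) over the 24 arrays, with the 491 genes called higher in orange, the 926 called lower in blue, and the 15 largest rises and falls named. Panx3 stands at the top at 6.81 and Grem1 at the bottom at -5.73.

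The largest rises were those of Panx3 and Ihh. Panx3, a pannexin channel gene expressed in maturing chondrocytes, had signals of 39912, 31764, 24321, 24746 and 32417 in the transition arrays of animals 1 to 5, against 752, 91.4, 236 and 283 in the epiphyseal arrays of animals 1, 2, 4 and 5. Its log2 fold change was 6.81 ± 0.30 (adjusted p = 2.96e-14). The lowest transition array was far above the highest epiphyseal one. Ihh, which encodes Indian hedgehog, had 8368, 7101, 6746, 7049 and 12160.0 in the transition zone and 547, 34.8, 402 and 199 in epiphyseal cartilage, a log2 fold change of 5.30 ± 0.43 (adjusted p = 1.44e-09). The epiphyseal value of animal 2 was the lowest by far, and without that array the log2 fold change was 4.60.

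Cldn10, a claudin of tight junctions, had 2409, 1489, 1633, 1515 and 2548 in the transition zone, against 81.5, 89.5, 11 and 25 in epiphyseal cartilage (4.98 ± 0.33). Car8, a carbonic anhydrase-related protein that lacks the catalytic activity of its family, had 7788, 9812, 9167, 9112 and 9776, against 605, 386, 103 and 238 (4.90 ± 0.30). Kcna5, a voltage-gated potassium channel, rose by a log2 fold change of 3.59 ± 0.30. All 3 were higher in each transition array than in any epiphyseal one. Ppa1, the cytosolic enzyme that splits pyrophosphate, was at 18842, 18228, 15704, 16156 and 22367 in the transition zone, against 2059, 1676, 1094 and 1216 in epiphyseal cartilage (3.53 ± 0.20, adjusted p = 1.79e-12). Matn2, a matrilin of the pericellular matrix, rose by 4.06 ± 0.22. The rest of the 15 largest rises were Sgsm1 (3.98 ± 0.33), a modulator of small G proteins, Mx2 (3.52 ± 0.49), an interferon-induced GTPase, Exph5 (3.51 ± 0.56), a Rab27 effector, Fgl2 (3.49 ± 0.36), a fibrinogen-like protein, Phlda2 (3.47 ± 0.51), an imprinted gene, Tmem229a (3.25 ± 0.45), Pla2r1 (3.25 ± 0.32), a phospholipase A2 receptor, and Cpa6 (3.23 ± 0.31), a carboxypeptidase. Adjusted p over the 15 ranged from 2.96e-14 to 4e-05. A rise in 4 of 4 animals and groups without overlap were conditions for choosing these 15 genes.

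The largest falls were those of Grem1, Pcp4 and Abi3bp. Grem1, which encodes gremlin, an antagonist of bone morphogenetic proteins, had 22.9, 63.7, 80.7, 9.9 and 96.3 in the transition zone, against 2107, 2792, 3601 and 3795 in epiphyseal cartilage (log2 fold change -5.73 ± 0.42, adjusted p = 2.32e-10). Its transition signals were at the dim end of the arrays and varied several-fold among animals, while the epiphyseal ones lay close together. Pcp4, a small regulator of calmodulin, had 176, 69.8, 143, 249.7 and 57.3 in the transition zone, against 6800.1, 3157, 10099 and 9694 in epiphyseal cartilage (-5.69 ± 0.42). Abi3bp, a secreted matrix protein, had 78.8, 88.4, 110.1, 101.4 and 92.6, against 2734, 5126, 3974 and 4030.0 (-5.09 ± 0.34). Neither gene overlapped between the tissues.

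Cadherins and an RNA gene were also among the largest falls. Cdh22, a cadherin, had 1344, 1999, 1201, 1962 and 1200.4 in the transition zone, against 26859, 31157, 36334 and 39682 in epiphyseal cartilage (-4.38 ± 0.23, adjusted p = 5.41e-13). Meg3, an imprinted long noncoding RNA, had 909, 1186, 887, 793 and 1020.0, against 13367, 17324, 18640.0 and 22412 (-4.11 ± 0.21). Both lay well above the array median in either tissue. Cdh10 (-4.21 ± 0.58) and Cldn11 (-4.50 ± 0.33), a claudin, also fell. So did the matrix genes Efemp1 (-4.79 ± 0.39), which encodes fibulin-3, Thbs2 (-4.17 ± 0.29), a thrombospondin, and Mfap2 (-4.08 ± 0.37), a microfibril protein. The other falls were Ptn (-4.80 ± 0.66), the heparin-binding growth factor pleiotrophin, Boc, described below, Runx1t1 (-4.26 ± 0.56), a corepressor, Bmp3 (-4.17 ± 0.45) and Cd248 (-4.16 ± 0.60), a surface glycoprotein of stromal cells. The mean signal of Cd248 was 510 in epiphyseal cartilage, 131 in the resting zone and 12.5 in the transition zone. It could pass the filter through its epiphyseal arrays alone, so its place in the test and its fall rest on the same values. Adjusted p over the 15 ranged from 2.76e-13 to 1.06e-05. A fall in 4 of 4 animals and groups without overlap were likewise conditions for choosing these 15 genes.

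**Figure D3:**
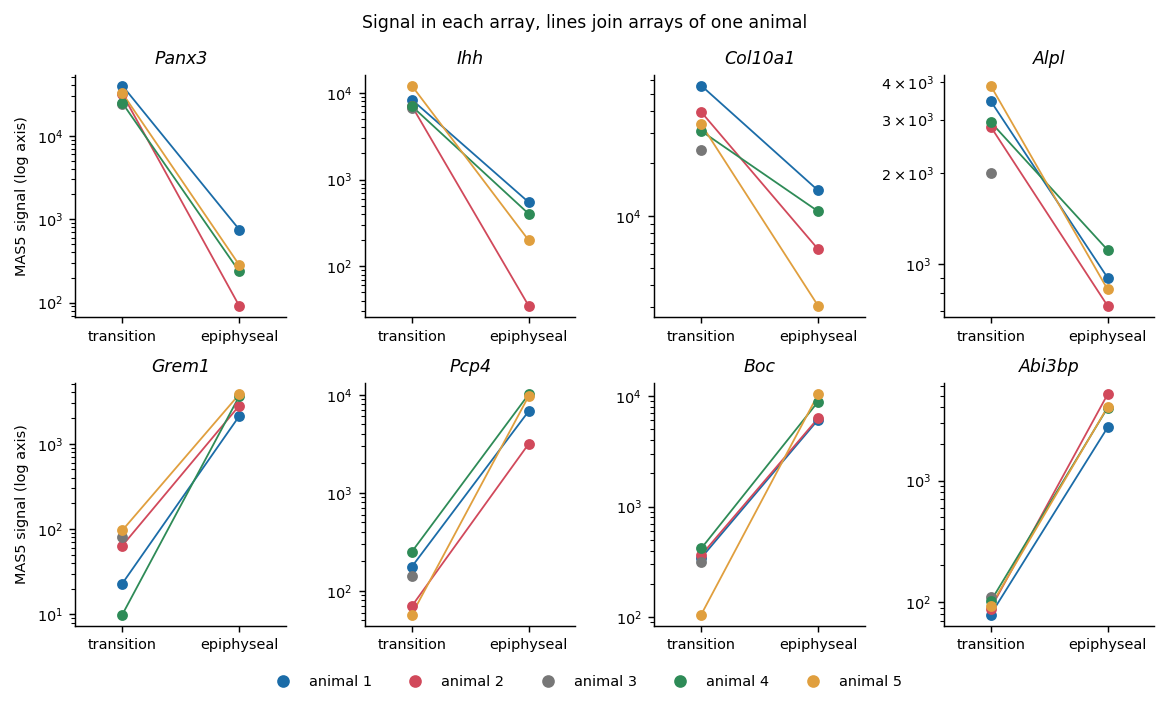
MAS5 signal of 8 genes in each array on log axes, with the transition zone on the left and epiphyseal cartilage on the right, and lines joining the arrays of 1 animal (animal 3 has no epiphyseal array). Panx3, Ihh, Col10a1 and Alpl are higher in every transition array than in any epiphyseal array, and Grem1, Pcp4, Boc and Abi3bp are lower.

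The zone means place these genes along the cartilage. Of the 15 largest rises, 7 had their highest mean in the transition zone, 5 in hypertrophic cartilage (Panx3, Ihh, Sgsm1, Exph5 and Fgl2) and 3 in the proliferative zone (Matn2, Pla2r1 and Cpa6). Of the 15 largest falls, 9 had their highest mean in epiphyseal cartilage and 6 in the resting zone. Among all 491 genes called higher, 282 (57.4%) peaked in the transition zone, 142 (28.9%) in the hypertrophic, 63 (12.8%) in the proliferative and 4 (0.815%) in the resting. Among the 926 called lower, 424 (45.8%) were highest in epiphyseal cartilage, 329 (35.5%) in the resting zone, 103 (11.1%) in the hypertrophic zone and 70 (7.56%) in the proliferative zone. Over all 10558 genes tested, the highest mean was in the transition zone for 19.9%, the hypertrophic for 25.8% and the proliferative for 19.3%. It was in the resting zone for 19.0% and in epiphyseal cartilage for 16.1%. The call itself keeps the zone with the lower mean from being the highest, so the shares of called genes are a description.

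**Figure D4:**
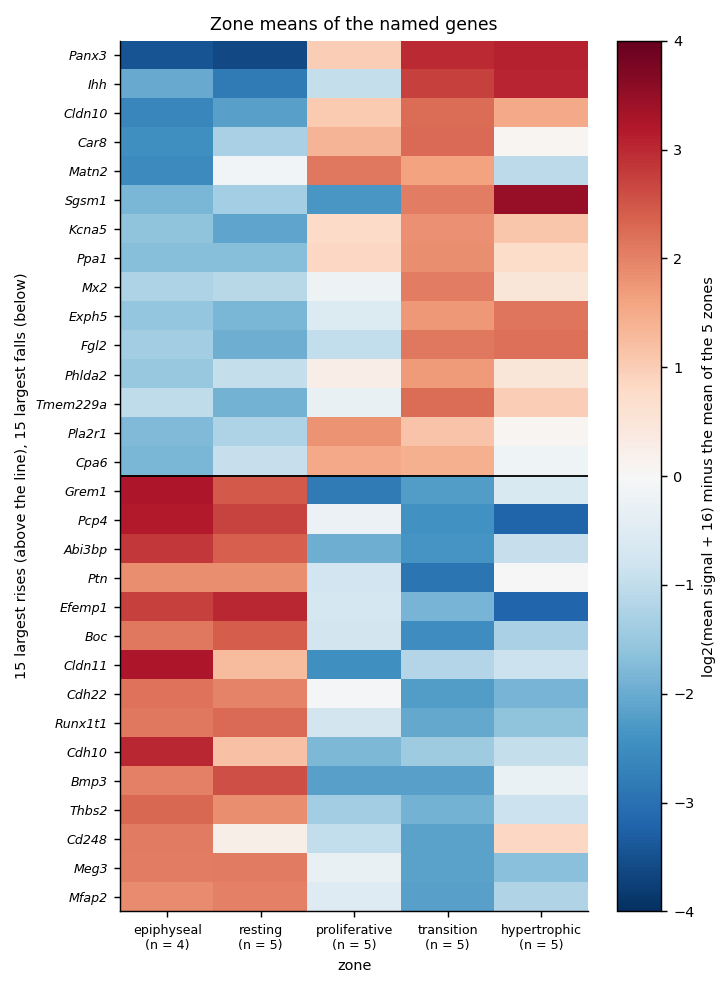
Log2(mean signal + 16) of the 15 largest rises and the 15 largest falls in the 5 zones, as the difference from the mean of the 5 zones of that gene. Of the falls, 9 have their highest mean in epiphyseal cartilage and 6 in the resting zone, and 3 of the rises (Matn2, Pla2r1 and Cpa6) have their highest mean in the proliferative zone.

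Of 22 members of the hedgehog pathway and its partner parathyroid hormone-related protein, 12 were tested, and 4 rose and 2 fell, with a median log2 fold change of 0.62 against -0.02 over all genes. Ihh, the ligand, is described above, and Dhh, another ligand, did not pass the test (0.37 ± 0.50). Disp1, which releases hedgehog from the cell, had 937, 1036, 754, 942 and 801 in the transition zone, against 296, 377, 776 and 433 in epiphyseal cartilage. It rose by 1.06 ± 0.24 (adjusted p = 0.00136) although the epiphyseal array of animal 4 lay within the transition range. When epiphyseal arrays 1 and 2 were left out the value was 0.79 (adjusted p = 0.0665), and with no replicate block it was 0.98, under the 2-fold limit.

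Boc, a co-receptor that binds hedgehog, had 343, 363, 312, 417 and 105 in the transition zone, against 6098, 6295, 8886 and 10342 in epiphyseal cartilage (-4.72 ± 0.32, adjusted p = 4.53e-11). It lay lower in every transition array. Smo, the signalling receptor, had a log2 fold change of -0.80 ± 0.19 and an adjusted p of 0.00215, and did not reach the 2-fold limit. Pth1r, the receptor of parathyroid hormone-related protein, had 34837, 26591, 18824, 27037 and 24957 in the transition zone, against 11676, 11274, 18178 and 14684 in epiphyseal cartilage (1.04 ± 0.18, adjusted p = 9.33e-05). The groups did not overlap, but the rise stood at the 2-fold limit: it was 0.92 with no replicate block, 0.73 (adjusted p = 0.0151) when epiphyseal arrays 1 and 2 were left out, and 0.37 (adjusted p = 0.103) as the mean of its probe sets.

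Gli1, which hedgehog signalling induces, had 491, 332, 150.2, 449 and 434 in the transition zone, against 164, 214, 42.1 and 66.3 in epiphyseal cartilage (1.81 ± 0.33, adjusted p = 0.000219). Only the transition array of animal 3 lay within the epiphyseal range. Gli2, the main activator of the pathway, had 293, 284, 361, 597 and 105, against 714, 1086, 1408 and 1623 (-1.88 ± 0.29, adjusted p = 2.52e-05), and the groups did not overlap. The regulators Kif7 (0.77 ± 0.21, adjusted p = 0.00732), Sufu (0.68 ± 0.50) and Stk36 (0.57 ± 0.44) and the hedgehog-binding inhibitor Hhip (-0.21 ± 0.41) were not called. Kif7 passed, at 1.06, with arrays scaled to one median. The other 10 members, Ptch1, Gli3 and Pthlh among them, did not pass the filter.

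Genes of hypertrophy went both ways. Of 24 listed, 20 were tested, 9 rose and 4 fell, with a median log2 fold change of 0.37. Of 6 transcription factors tested, 4 rose. Runx3 had 2319, 2556, 4380.3, 3560.0 and 2571 in the transition zone, against 402, 508, 598 and 466 in epiphyseal cartilage (2.47 ± 0.18, adjusted p = 2.32e-10), and Mef2d rose by 1.05 ± 0.17. The rise of Mef2d stood at the 2-fold limit, and was under it without animal 5 (0.91) and as the mean of its probe sets (0.99). Dlx5 (2.16 ± 0.36) and Foxa3 (2.18 ± 0.48), a homeobox and a forkhead gene named here after their values were seen, rose as well. Alpl, tissue-nonspecific alkaline phosphatase, which removes the mineralization inhibitor pyrophosphate, had 3456, 2844, 1992, 2943 and 3886 in the transition zone, against 899, 726, 1111 and 823 in epiphyseal cartilage (2.01 ± 0.35, adjusted p = 0.000136). Phospho1, which frees phosphate in matrix vesicles, had 4799, 4371, 3642, 5095 and 6593, against 1038, 908, 1788 and 3083 (1.78 ± 0.24). Neither enzyme overlapped between the tissues. With Smpd3, a sphingomyelinase gene (1.76 ± 0.22), these were the 3 of 17 tested mineralization genes that rose. Ankh, a transporter of pyrophosphate, fell (log2 fold change -1.04, adjusted p = 0.0192), and the median was 0.03. It was not called with arrays scaled to one median (-0.75, adjusted p = 0.0958), after quantile normalization (-0.84, adjusted p = 0.0658) or without the 2 epiphyseal arrays (-0.51, adjusted p = 0.399). Anxa2 (0.80 ± 0.16) and Anxa5 (0.50 ± 0.14), annexins of matrix vesicles, were not called.

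The members of the hypertrophy list that fell were the proteases Mmp9 and Mmp13, the growth factor Vegfa and the receptor Fgfr1. Mmp9, a gelatinase of osteoclasts and of the ossification front, had 729, 629, 566, 345 and 377 in the transition zone, against 24859, 18274, 1004 and 732 in epiphyseal cartilage (-3.08 ± 0.79, adjusted p = 0.0045). Mmp13, a collagenase named here after its values were seen, had 1513, 1394, 1523, 1322 and 1038, against 27917, 34778, 1993 and 1742 (-2.49 ± 0.69, adjusted p = 0.00835). In both genes the high values were the epiphyseal arrays of animals 1 and 2, those with the osteoclast and endothelial markers, and animals 4 and 5 lay just above the transition range. Without that pair the value of Mmp9 was -0.88 (adjusted p = 0.446) and that of Mmp13 -0.61 (adjusted p = 0.554), and 2 of the 4 falls of the list were called. Vegfa, an angiogenic factor, had 2062, 806, 1474, 1136 and 931 in the transition zone, against 1169, 1671, 3790.5 and 6451 in epiphyseal cartilage (-1.15 ± 0.34, adjusted p = 0.0124). Here the arrays of animals 4 and 5 were the high ones, and without animal 5 the value was -0.67 (adjusted p = 0.204). The promoters of Col10a1 and Alpl are shown because both genes rose together as markers of hypertrophy and the table of RefSeq promoters (assembly GRCr8, 250 bases before to 50 after the start) holds them.
Col10a1, chr20:39737286-39737585, plus strand: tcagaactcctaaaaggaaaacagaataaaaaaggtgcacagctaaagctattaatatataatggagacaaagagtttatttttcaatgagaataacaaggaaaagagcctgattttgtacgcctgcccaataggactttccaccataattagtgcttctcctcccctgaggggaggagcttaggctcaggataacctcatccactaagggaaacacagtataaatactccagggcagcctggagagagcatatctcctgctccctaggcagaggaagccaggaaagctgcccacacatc
Alpl, chr5:155289736-155290035, minus strand: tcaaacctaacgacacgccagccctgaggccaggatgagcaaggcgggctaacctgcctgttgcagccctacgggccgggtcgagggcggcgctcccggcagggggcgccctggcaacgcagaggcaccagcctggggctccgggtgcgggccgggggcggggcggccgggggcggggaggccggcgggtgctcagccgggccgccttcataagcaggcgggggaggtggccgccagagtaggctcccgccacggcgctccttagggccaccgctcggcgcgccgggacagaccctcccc
The core motif of RUNX factors, TGTGGT, searched on both strands, was in neither window, and 5789 of 33469 promoters of that length (17.3%) hold it.

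Few cartilage matrix genes were called. Of 17 tested of 23, 2 rose and 1 fell, and the median log2 fold change was -0.01. Comp, cartilage oligomeric matrix protein, had 71233, 39562, 30776, 42313 and 38691 in the transition zone, against 16411, 18229, 23296 and 24198 in epiphyseal cartilage (1.16 ± 0.20, adjusted p = 0.000141). The groups did not overlap. With those same arrays left out its value was 0.80, and without that of animal 1 alone 0.90, both under the 2-fold limit. Chad, chondroadherin, rose by 1.14 ± 0.30, but not without the epiphyseal array of animal 5 (0.72, adjusted p = 0.0531). Ucma, a secreted protein of cartilage matrix, had 315, 292, 484, 696 and 360.4, against 1448, 1362, 2168 and 2732 (-2.14 ± 0.25, adjusted p = 5.26e-07), and fell in every animal. Hapln1, the link protein (0.55 ± 0.18), and Matn1, a matrilin (-0.54 ± 0.23), were not called, and Matn1 passed at -1.03 (adjusted p = 0.00731) without the 2 epiphyseal arrays.

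Genes of the joint surface and epiphysis were tested in 17 of 24 cases, with 2 rises, 4 falls and a median of -0.55. Besides Abi3bp, the falls were Vit, the matrix protein vitrin, at 176, 73.2, 96.3, 192 and 90.3 in the transition zone, against 1540.5, 724, 1116 and 1225 in epiphyseal cartilage (-3.001 ± 0.32), Dcn, the proteoglycan decorin (-2.39 ± 0.33), and Sfrp2, a secreted Wnt antagonist (-1.61 ± 0.35). Has2, a hyaluronan synthase, rose, at 5234, 4892, 3382, 2674 and 5788 in the transition zone, against 1062, 1192, 1327 and 985 in epiphyseal cartilage (1.88 ± 0.26, adjusted p = 6.48e-06). The second rise was Lum, lumican, a collagen-binding proteoglycan. Prg4 and Gdf5, defining genes of the joint surface, did not pass the filter.

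Of 28 bone morphogenetic protein genes tested of 34, 7 rose and 4 fell, with a median of 0.30. Of 8 ligands tested, 5 rose and 1 fell, and of 7 antagonists 2 rose and 2 fell. Gdf10, a ligand also called Bmp3b, had 543, 654, 2887, 930.0 and 901 in the transition zone, against 67.6, 65.4, 88 and 132 in epiphyseal cartilage (3.10 ± 0.39, adjusted p = 1.47e-06). The transition array of animal 3 was the highest. Bmp2, an osteogenic ligand, had 5367, 6192, 4763, 3818 and 4881, against 1321, 1572, 2085 and 1938 (1.49 ± 0.20), with no overlap. Bmp6, Bmp7 and Bmp8a were the other ligands that rose. Without the epiphyseal arrays of animals 1 and 2, 5 of the 7 rises were called, and Bmp7 (0.87, adjusted p = 0.0358) and Bmp8a (0.59, adjusted p = 0.407) were not. Bmp3, which opposes osteogenic ligands, fell, at 46.2, 73.3, 66.5, 95.8 and 34.4 in the transition zone, against 878, 1246, 1425 and 2134 in epiphyseal cartilage. Among the antagonists, Grem1 and Chrd fell and Bambi and Bmper rose. Chrd, chordin, had a log2 fold change of -1.87 ± 0.29 (adjusted p = 3.59e-05). None of the 4 receptors tested was called.

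Of 21 Wnt pathway genes tested of 31, 3 rose and 4 fell, with a median of -0.33. The rises were 3 of the 4 ligands tested, and the falls held 3 of the 7 inhibitors. Wnt5b, a ligand of maturing chondrocytes, had 10661, 9087, 6968, 10873 and 9906 in the transition zone, against 1092, 1476, 1837 and 1808 in epiphyseal cartilage (2.69 ± 0.18, adjusted p = 5.12e-11). Wnt4 had 11514, 8031, 6831, 7851 and 8109, against 1528, 1742, 2794 and 1440.3 (2.27 ± 0.28), and Wnt5a rose by 1.34 (adjusted p = 0.0282), at low signals. Without the 2 epiphyseal arrays Wnt5a was not called (1.34, adjusted p = 0.125). Sfrp1, a secreted frizzled-related inhibitor, had 303, 287, 328, 393 and 389 in the transition zone, against 2461, 2538, 5028 and 3390.5 in epiphyseal cartilage (-3.09 ± 0.19, adjusted p = 1.42e-11). The arrays of the tissues lay far apart. Sfrp5 (-2.72 ± 0.36) and Sfrp2 also fell, and with them Fzd2, a frizzled receptor (-1.85 ± 0.24).

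**Figure D5:**
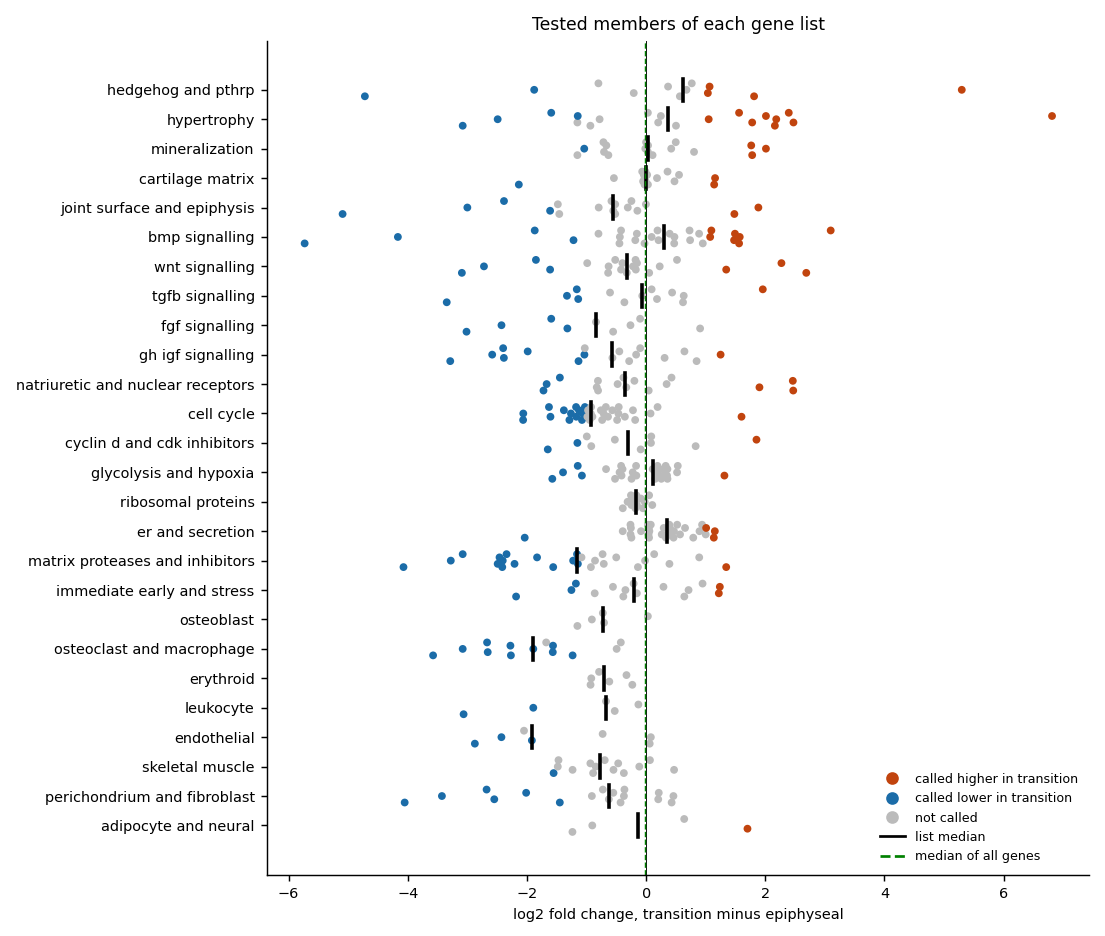
Log2 fold change (transition minus epiphyseal) of the tested members of 26 gene lists, in orange where called higher, blue where called lower and grey where not called, with a black bar at the median of each list and a dashed green line at the median of all genes. Osteoclast and macrophage, endothelial, and matrix protease lists have medians of -1.89, -1.92 and -1.15, and ribosomal proteins lie close together with none called.

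In the transforming growth factor beta list, 1 of 13 tested genes rose (Inhba, an activin subunit) and 4 fell, of 17 listed, with a median of -0.07. Ltbp1, which binds the latent ligand to matrix, had 178, 194, 135, 112 and 97.1 in the transition zone, against 1287, 1563, 2009.8 and 1293 in epiphyseal cartilage (-3.35 ± 0.32, adjusted p = 2.23e-08). Tgfbi, a matrix protein that the pathway induces, fell by 1.33 ± 0.20, Smad3, a signal carrier, by 1.16 ± 0.24 and Tgfb3, a ligand, by 1.14 ± 0.25 on the log2 scale. Smad3 and Tgfb3 were under the 2-fold limit, at -0.88 and -0.86, with arrays scaled to one median, and leaving out epiphyseal arrays 1 and 2 put Tgfb3 at -0.92 (adjusted p = 0.0456).

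Fibroblast growth factor receptors differed among themselves. Of 9 genes tested of 18, 0 rose and 4 fell, with a median of -0.84. Fgfr2 had 347, 359, 582, 623 and 475 in the transition zone, against 3206, 3620.0, 4953 and 3734 in epiphyseal cartilage (-3.02 ± 0.18, adjusted p = 4.33e-12), and Fgfr1 had 273, 354, 419, 644 and 389.5, against 1206, 1635, 1519 and 1016 (-1.59 ± 0.23). Fgfr3, the receptor that restrains chondrocyte division, had 39197, 32208, 21353, 25967 and 23570.0, against 11532, 16895, 16004 and 19120.0. So Fgfr2 and Fgfr1 were lower in every transition array and Fgfr3 was higher in each, though its log2 fold change of 0.91 ± 0.19 (adjusted p = 0.000674) was under the 2-fold limit, and 1.21 with arrays scaled to one median. The feedback inhibitors Dusp6, a phosphatase (-2.43 ± 0.43), and Spry4, a sprouty (-1.32 ± 0.26), fell. For Dusp6 the epiphyseal signals were 1832 and 1552 in animals 1 and 2, and 386 and 501 in animals 4 and 5. Spry4 was at -0.99, just under the limit, without the first pair.

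Of 17 growth hormone and insulin-like growth factor genes tested of 19, 1 rose and 7 fell, with a median of -0.57. Ghr, the growth hormone receptor, had 220.5, 295, 262, 285 and 270.4 in the transition zone, against 938, 1084, 1909 and 696 in epiphyseal cartilage (-1.99 ± 0.23, adjusted p = 3.66e-07). Of the 6 binding proteins tested, 5 fell. Without the epiphyseal arrays of animals 1 and 2, Igfbp3 (-1.80, adjusted p = 0.175) and Igfbp4 (-0.70, adjusted p = 0.332) were not called. Igfbp4 and Igfbp6 were not called with arrays scaled to one median (-0.75 and -0.85) or after quantile normalization (-0.80 and -0.84). Igfbp5 had 318, 252, 375, 484 and 71.8 in the transition zone, against 2260.1, 1244, 6094 and 2719 in epiphyseal cartilage (-3.29 ± 0.45). Ghr and Igfbp5 were higher in all 4 epiphyseal arrays. The ligand gene Igf1 was otherwise, at 23.1, 20.4, 24.3, 24.2 and 22.5 in the transition zone, against 1265, 396, 35.6 and 99.5 in epiphyseal cartilage (-2.58 ± 0.59, adjusted p = 0.00182). Its high values were those of animals 1 and 2, and without them the value was -0.97 (adjusted p = 0.267). Igfbp7 had the same high arrays (-2.40 ± 0.49, and -0.97 with adjusted p = 0.149 without them), and only 3 of the 7 falls were called without the pair. Irs1, a signalling adaptor, was the rise (1.25 ± 0.26), at 0.64 (adjusted p = 0.111) without the pair.

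In the list of natriuretic peptide and nuclear receptor genes, 3 rose and 3 fell of 16 tested of 22, with a median of -0.36. Prkg2, the cyclic GMP-dependent kinase through which C-type natriuretic peptide promotes bone growth, had 1853, 2088, 2398, 1978 and 2946 in the transition zone, against 499.9, 476, 357 and 268 in epiphyseal cartilage (2.47 ± 0.23, adjusted p = 1.16e-08). Aldh1a3, an enzyme that makes retinoic acid, had 1168, 1001, 615, 991 and 1064, against 98.9, 165, 508 and 91.1 (2.46 ± 0.40). In both, the groups did not overlap. Npr3, the clearance receptor of natriuretic peptides, rose by 1.90 ± 0.53, but not without animals 1 and 2 in the epiphyseal group (1.20, adjusted p = 0.206). The falls were Rbp4, a retinol-binding protein (-1.45 ± 0.27), Crabp2 and Rarb, all of retinoid handling. Of these 3 falls, 1 was called with arrays scaled to one median, and 2 were called without the 2 epiphyseal arrays, where Rarb was at -1.05 (adjusted p = 0.362). Thra, a thyroid hormone receptor, was not called (-0.83 ± 0.27).

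Many cell cycle genes were lower in the transition zone. Of 34 tested of 39, 13 fell and 1 rose, and the median was -0.93. Mki67, a marker of dividing cells, had 489.7, 388, 484, 796 and 399.5 in the transition zone, against 1443, 1519, 933 and 1359 in epiphyseal cartilage (-1.29 ± 0.26, adjusted p = 0.000635). Ska1, of the kinetochore, had 104, 59.4, 73.7, 108 and 95.6, against 749, 438, 199 and 518 (-2.06 ± 0.31), and Nusap1, of the spindle, fell by 1.26 ± 0.21 and Ccnb2, a mitotic cyclin, by 1.07 ± 0.21 on the log2 scale. These 4 genes were lower in each transition array than in any epiphyseal array. The count moved with the setting. With arrays scaled to one median 5 fell, where 5.21% of all genes were called lower, and 4 fell without the epiphyseal arrays of animals 1 and 2, where Mki67 was at -0.94 (adjusted p = 0.0457) and Ccnb2 at -0.74 (adjusted p = 0.0471). Ccnb2 was also under the 2-fold limit with one median (-0.77) and after quantile normalization (-0.94). With one median Mki67 (-0.99) and Nusap1 (-0.97) were under it too. Cks2, a subunit of cyclin-dependent kinases, went the other way, at 4088, 3576, 3142, 2926 and 4665 in the transition zone, against 1774, 1246, 981 and 870.2 in epiphyseal cartilage (1.601 ± 0.16, adjusted p = 7.37e-08).

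Of 10 tested cyclin D and inhibitor genes (of 14), 1 rose and 2 fell, with a median of -0.31. Cdkn1a, the inhibitor p21, had 3223, 2709.9, 2826, 3506 and 3961 in the transition zone, against 792, 771, 1212 and 1002 in epiphyseal cartilage (1.85 ± 0.21, adjusted p = 3.67e-07). Ccnd1, cyclin D1, had 407, 603, 547, 452 and 151, against 2046, 2284, 959.7 and 725 (-1.65 ± 0.29). The inhibitor gene Cdkn2c fell by 1.15 ± 0.21, and was at -0.87 with one median. Ccnd2 (-0.92 ± 0.21) and Rbl1 (-0.996 ± 0.28) were not called.

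None of 14 ribosomal protein genes tested (of 28) was called, their median was -0.17, and the named ones lay between -0.39 ± 0.20 for Rpl4 and -0.24 ± 0.16 for Rpl23. Of 29 glycolysis and hypoxia genes tested (of 33), 1 rose and 4 fell, with a median of 0.11. Aldoc, an aldolase, had 4340.5, 3504, 5116, 4688 and 4791 in the transition zone, against 880.3, 1409.9, 3303 and 2174 in epiphyseal cartilage (1.31 ± 0.24), and was at 0.83, under the 2-fold limit, without the 2 epiphyseal arrays. Epas1, a hypoxia-inducible factor, fell (-1.57 ± 0.26, or -0.97 without them), beside Vegfa. Pfkfb4, a regulator of glycolysis (-1.08 ± 0.22), and the glucose transporter gene Slc2a3 (-1.40 ± 0.37) fell as well. Pfkfb4 was under the 2-fold limit with one median (-0.79) and after quantile normalization (-0.895). Slc2a3 was at -1.04 (adjusted p = 0.0758) without animal 5. Of the 4 falls, 2 were called with one median.

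In the endoplasmic reticulum and secretion list, 3 rose and 1 fell of 32 tested (of 33), with a median of 0.35. Sec61b, of the translocation channel, had 20127, 13822, 13399, 11743 and 15982 in the transition zone, against 7104, 6795, 6116 and 6852 in epiphyseal cartilage (1.15 ± 0.15, adjusted p = 2.08e-06), and Dnajb9, a chaperone, rose by 1.14 ± 0.18. The third, Fkbp11, a prolyl isomerase, rose by 1.01 ± 0.15, at the 2-fold limit, and by 0.999 with no replicate block. Ero1b, an oxidase, fell (-2.04 ± 0.39), and Dnajc3 was not called (0.94 ± 0.17). The rises numbered 7 with arrays scaled to one median, where 10.4% of all genes were called higher, and 1 after quantile normalization. In the immediate early and stress list, 2 of 15 tested genes rose and 3 fell, of 18 listed. Egr1, an early transcription factor gene, had 212, 288, 201, 407 and 142 in the transition zone, against 2012, 2682, 547 and 986 in epiphyseal cartilage (-2.18 ± 0.40), and -1.11 (adjusted p = 0.0604) without the 2 epiphyseal arrays. Hspb1, a small heat shock protein, rose by 1.22 ± 0.33, but was not called without animal 1 (adjusted p = 0.0587) or without animal 5 (adjusted p = 0.0769). Hsph1 was not called (0.95 ± 0.17), but passed at 1.37 (adjusted p = 1.28e-05) without the 2 epiphyseal arrays and at 1.25 with one median. Ier3 fell (-1.25 ± 0.27), and was at -0.97 (adjusted p = 0.0407) without those arrays and -0.96 with one median. Without the 2 epiphyseal arrays 0 of the 3 falls of this list were called and 4 genes rose, where 6.21% of all genes were called higher. With one median 4 rose and 1 fell, where 10.4% of all genes were called higher and 5.21% lower. Fos had a log2 fold change of 1.24 ± 0.38 (adjusted p = 0.0148), and 0.93 (adjusted p = 0.221) with no replicate block.

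Matrix proteases, their inhibitors and cross-linking enzymes were lower in 14 of 26 tested genes (of 29) and higher in 1, with a median of -1.15. With epiphyseal arrays 1 and 2 left out, 6 fell and 2 rose. Lox, lysyl oxidase, which cross-links collagen and elastin, had 964, 1974, 1002, 1264 and 956 in the transition zone, against 2488, 7945, 12116 and 7793 in epiphyseal cartilage (-2.34 ± 0.27, adjusted p = 3.4e-07). Here the epiphyseal array of animal 1 was the lowest of its group. Serpine2, a protease inhibitor, had 457, 434, 586, 656 and 514, against 9323, 5253, 3618 and 3961 (-3.28 ± 0.35), and Timp2, an inhibitor of metalloproteases, had 804, 1007, 1115, 1240.3 and 917, against 8137, 4301, 5158 and 5773 (-2.46 ± 0.39). Both were several-fold lower in every transition array. Mmp23 also fell (-2.21 ± 0.34). Tgm2, a transglutaminase that cross-links matrix, was the rise, at 5351, 5026, 5285, 7324 and 5250.2 in the transition zone, against 2465, 2195, 2645 and 1894 in epiphyseal cartilage (1.34 ± 0.18, adjusted p = 3.58e-06).

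Several connective tissue genes were lower in the transition zone whichever animal was read. Pdgfra, a receptor of platelet-derived growth factor found on mesenchymal cells, had 256, 539, 543, 289 and 381 in the transition zone, against 5424, 6909, 7361 and 7266 in epiphyseal cartilage (-4.05 ± 0.33, adjusted p = 1.8e-09). Col14a1, a fibril-associated collagen, had 368, 404, 648, 593 and 841, against 7105, 5272, 4594 and 7484 (-3.43 ± 0.38). Fbn1, fibrillin-1, had 222, 333, 307, 433 and 344, against 2216, 2656, 1746 and 1350.4 (-2.55 ± 0.21). In these 3 genes all 4 epiphyseal arrays were several-fold above the transition zone, and 5 of the 6 falls of the perichondrium and fibroblast list were called without the arrays of animals 1 and 2. Col6a1, of the pericellular collagen VI, fell by 1.45 ± 0.19. Col3a1, type III collagen, had 817, 548, 890.4, 315 and 506, against 7878, 7884, 1930.5 and 1262 (-2.68 ± 0.62), with the highest values in animals 1 and 2, and -1.49 (adjusted p = 0.157) without them.

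Gene families were also counted, as symbols that share a prefix, and were chosen after values were seen. Of 14 symbols with the Hox prefix, 7 fell and 0 rose, with a median of -1.03, and 4 of those 7 remained called with arrays scaled to one median. The antisense RNA Hoxa11-as was among the 7. Hoxa9 had 1298, 1214, 1247, 1484 and 1123 in the transition zone, against 3871, 4863, 5435 and 6376 in epiphyseal cartilage (-1.98 ± 0.15, adjusted p = 5.36e-10). Of 4 nuclear factor I genes, a family of transcription factors, 3 fell: Nfib had 167, 249.8, 389, 257 and 243, against 2596, 3365, 3204 and 2973 (-3.47 ± 0.30), Nfia fell by 2.96 ± 0.23 and Nfix by 1.29 ± 0.19, and 2 of them remained called with one median. Hoxa9 and the 3 nuclear factor I genes that fell were lower in each transition array than in any epiphyseal array. Of 16 microfibril genes (fibrillins, latent binding proteins, fibulins and elastin), 5 fell and 0 rose, Fbn2 among them (-3.87 ± 0.55).

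Glypicans and syndecans, cell surface heparan sulphate proteoglycans that hold growth factors, split: 3 of 9 rose and 4 fell. Gpc3 had 2836, 2339.5, 3706, 2125 and 2410.4 in the transition zone, against 324, 299, 296 and 464 in epiphyseal cartilage (2.75 ± 0.17, adjusted p = 1.61e-11), and Gpc4 rose by 1.87 ± 0.17. Gpc6 had 1461, 1672, 1669, 2041 and 1241, against 7466, 5263, 10109 and 7679 (-2.23 ± 0.21, adjusted p = 1.64e-08), and Sdc1 fell by 1.52 ± 0.28. None of these 4 genes overlapped between the tissues. Of 33 collagen chains 3 rose and 10 fell, and 5 of those 10 were called again without the epiphyseal arrays of animals 1 and 2. Of 196 solute carriers 16 rose and 16 fell, while 34 rose and 11 fell with one median. Slc13a5, a citrate transporter, was the largest rise of these, at 9814, 9896, 6102, 9391 and 8231 in the transition zone, against 1219, 705, 1008 and 1287 in epiphyseal cartilage (3.14 ± 0.18). Of 46 proteasome genes 4 rose and 2 fell, and 14 rose with one median. Of 80 respiratory chain genes 1 rose and 1 fell, and 10 rose with one median. With that scaling 10.4% of all genes were called higher and 5.21% lower.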

How the data were processed

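The authors deposited linear intensity values made with MAS5, as named in the submitters' processing notes without a version. Trimmed of 2% of probe sets at each end, every array had a mean between 500.0 and 500.4. Detection calls were not used, and the number of arrays limits the precision. The log2 ratio of 3 prime to 5 prime signal of the actin control probe sets was 4.22 to 4.68 in the transition arrays and 3.48 to 4.94 in the epiphyseal arrays. For Gapdh it was 2.15 to 2.92 and 2.60 to 3.42. Signal was thus far stronger at the 3 prime end in both groups, and whether this affects the differences was not tested.

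The signals were taken as log2(signal + 16). Control probe sets (57) were dropped, and testing required a signal above the array's median in at least 4 of 24 arrays. A gene high in a single tissue can pass this filter through the arrays of that tissue alone. The comparison was a contrast of limma 3.58.1 (R 4.3.3; lmFit, contrasts.fit, eBayes with a trend) fitted on all 24 arrays, with the animal as a fixed block (15 residual degrees of freedom) and Benjamini-Hochberg adjustment over all 19213 probe sets. Standard errors are those of the fit. The labels of the 9 arrays give the animal by number, so same-numbered arrays among them come from the same animal. Arrays of the other zones were put in these blocks by the replicate number in their titles. Fitted on the 9 arrays alone with the block, 804 probe sets were higher and 1703 lower. Deviations of same-animal arrays correlated at a median r of 0.092 (0.018 to 0.189, 4 pairs). Those of different animals correlated at -0.025 (-0.163 to 0.148, 16 pairs), so the ranges overlapped. Of the 4 epiphyseal arrays, 3 correlated best with the transition array of their own animal. Between any 2 arrays of either group at most 38 values were identical, so none was taken for a duplicate. The labels of both groups are worded alike, and name no batch.

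Gene symbols came from the platform annotation and the gene table of assembly GRCr8. Of the probe sets tested, 13956 had 1 symbol, 323 several and 4934 none. A gene is its probe set of highest mean log2 signal. Named were the 15 largest rises and falls among called genes with the same direction in all 4 paired animals and no overlap, every tested hedgehog list member, and up to 5 members of each of the other lists by adjusted p, 157 genes in all. Dlx5, Foxa3, Mmp13 and the list members named without values lie outside this rule and were chosen after their values were seen, and Col2a1, Acan, Col10a1 and Mef2c are markers that check the labels. The members and the 26 lists were chosen with earlier results of these data known, and the families after values were seen. The fit was also run on data simulated from its own model, with independent normal errors. Such data cannot show how the fit handles arrays that stand apart, and no result here rests on them. Alternatives covered pseudocounts of 1 and 64, scaling, filters, the block, the arrays fitted, weights, and leaving out each animal or array. Matplotlib 3.10.9 in Python 3.11.15 drew the figures.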

Additional observations from a re-analysis of the deposited data

Results flagged for a closer look

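In 6 of 138 groups of 4 or 5 arrays, 1 array stood apart from the rest of its group by Dixon's criterion, where chance gives about 5% of groups. All values are on the log2(signal + 16) scale, or the mean of that over a list. For Boc, the hedgehog co-receptor, the transition array of animal 5 was at 6.92 and the nearest other at 8.36. For Cdh10, the transition array of animal 2 was at 4.89, against 6.47 for the nearest. The joint surface and epiphysis list averaged 9.17 in the transition array of animal 3, against 8.94 for the nearest, and the immediate early and stress list 8.52 in the same array, against 8.90. The skeletal muscle list averaged 9.65 in the transition array of animal 1, against 8.45. The log2 of the array median signal was 7.93 in the epiphyseal array of animal 5, against 7.50 for the nearest.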

How the results depend on the processing

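As deposited, the values gave 831 calls higher and 1818 lower in the transition zone, so that 31.4% of calls were higher. Scaling moved this most: one median for all arrays gave 1813 higher and 1087 lower calls (62.5% higher), and after quantile normalization 44.8% were higher. With a filter at the 75th percentile 924 were lower and 39.6% of calls were higher, and with no filter 28.6% were higher. Without the epiphyseal arrays of animals 1 and 2, 40.8% of calls were higher. The cause of these shifts was not tested. With no replicate block 845 were higher and 1881 lower (31.0% higher), so these 2 counts moved by less than 1.5 times. Without the block the calls of Pth1r, Disp1, Fkbp11 and Fos were lost among the named genes, and 2 hedgehog genes rose in place of 4 and 1 immediate early and stress gene in place of 2. Leaving out each animal or array in turn gave 723 to 890 higher, 1429 to 1922 lower and 30.1% to 34.5% of calls higher. Of the 113 named genes that were called, 76 were called in every setting that tested them, and no named gene was called in the opposite direction in any. The filter at the 75th percentile left 102 of the 113 tested, and all 102 were called. Among the alternatives run, no probe set called as deposited was called the other way. The filter leaves the dimmest probe sets untested, and the scale understates their change.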
